A study of Mus musculus with 24 samples.

Results

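The 8 genes described here are Cish and Socs1 to Socs7, the suppressors of cytokine signalling, found by exact symbol among the 24438 named genes of the count table. All 8 were present once and passed the filter on low counts in every fit, with 18 to 6123 reads per library. RNA had been sequenced by Smart-seq2, a full-length method for small cell numbers, from bone marrow cells of C57BL/6N mice that were sorted by flow cytometry 12 weeks after 5 days of tamoxifen. The sorted populations were long-term haematopoietic stem cells (LTHSC), progenitors of both the megakaryocytic and the erythroid lineage (preMegE), and progenitors of megakaryocytes alone (MkP). Genotype VF combines Vav1.Cre with the Jak2 allele in which phenylalanine replaces valine, E12 combines Scl.Cre with the Jak2 Exon12 allele, and KI combines Scl.Cre with a knock-in of mouse Jak2. VF and KI were measured in all 3 populations and E12 in LTHSC and MkP, with 3 libraries in each of the 8 groups. The labels do not say whether the KI allele is mutated, so KI is used as the common comparison and is not called wild type. All groups carry a Cre driver and received tamoxifen, and the driver changes with the VF genotype, so mutation and driver cannot be told apart in any VF comparison. Both drivers act in blood-forming cells. Nothing in the labels ties a replicate to its own animal, so p-values measure the spread between these libraries, which may be technical.

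Cytokine receptors of blood cells signal through JAK kinases, which phosphorylate STAT transcription factors; STATs in turn switch on Cish and several Socs genes, whose proteins shut the same pathway off. Each of these proteins has an SH2 domain that finds phosphorylated tyrosine and a SOCS box that recruits elongins and a cullin ubiquitin ligase. Cish and Socs2 are classic STAT5 targets downstream of the erythropoietin and growth hormone receptors, and Socs1 and Socs3 also block the kinase directly.

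The promoters of 3 members that were lower in progenitors than in stem cells are shown because the JAK-STAT pathway is known to act on these genes. They come from RefSeq, build GRCm38.p6, are written in the direction of the gene, and run from 250 bases before to 50 bases after the start site that the promoter table uses. For Cish and Socs1 that site is the 5′ end of the RefSeq gene, whereas for Socs3 it lies 970 bases inside the gene's span, so that RefSeq also places a start further upstream. Cish is on chromosome 9 (chr9:107296409-107296708, plus strand), Socs1 on chromosome 16 (chr16:10785487-10785786, minus strand) and Socs3 on chromosome 11 (chr11:117969317-117969616, minus strand). Capitals mark every match to TTCNNNGAA, the general form of a STAT binding site, which reads the same on both strands.
Cish: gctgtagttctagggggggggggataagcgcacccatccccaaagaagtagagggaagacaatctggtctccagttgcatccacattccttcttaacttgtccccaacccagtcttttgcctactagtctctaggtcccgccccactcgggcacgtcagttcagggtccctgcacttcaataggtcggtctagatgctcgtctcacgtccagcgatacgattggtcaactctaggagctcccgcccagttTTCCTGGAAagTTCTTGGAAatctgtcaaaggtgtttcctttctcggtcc
Socs1: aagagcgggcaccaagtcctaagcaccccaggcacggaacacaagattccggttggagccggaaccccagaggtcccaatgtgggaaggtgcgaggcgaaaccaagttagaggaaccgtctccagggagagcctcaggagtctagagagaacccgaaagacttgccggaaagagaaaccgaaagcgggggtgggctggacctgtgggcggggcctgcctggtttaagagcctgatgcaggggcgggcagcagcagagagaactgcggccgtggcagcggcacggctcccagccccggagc
Socs3: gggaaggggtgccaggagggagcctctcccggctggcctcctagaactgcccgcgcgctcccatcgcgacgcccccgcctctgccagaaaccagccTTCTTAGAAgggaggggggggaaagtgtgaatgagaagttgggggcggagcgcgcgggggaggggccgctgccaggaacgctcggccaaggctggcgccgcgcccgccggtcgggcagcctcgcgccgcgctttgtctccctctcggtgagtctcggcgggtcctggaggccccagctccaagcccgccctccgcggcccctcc
The Cish window held 2 matches, TTCCTGGAA and TTCTTGGAA, and the first began at the start site itself. The Socs3 window held 1 match, TTCTTAGAA, whose first base is position 97 of the window, before the start site used there but inside the gene's RefSeq span. The Socs1 window and that of Socs4, which passed no test between populations, held 0 matches. Of 32851 RefSeq promoter windows of 300 bases, 8.3% held at least 1 match and 0.457% held 2 or more. A match describes letters only, and no binding was measured here.

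The libraries held 10357877 to 29691635 counts over 13237 to 16006 detected genes. Levels are given on 2 scales, both corrected for library composition with TMM, the scaling of edgeR. CPM brings a library's count to a common depth, and for the members and Jak2 it was scaled within a population. For cell type markers and correlations CPM was scaled over all 24 libraries. RPKM also divides by the deposited gene length and was scaled over all 24 libraries. Jak2 itself ran from 99.2 to 119 CPM in LTHSC VF, 22.3 to 64.9 in LTHSC E12 and 48.8 to 78.8 in LTHSC KI. The 22.3 CPM was E12 replicate 4, and replicates 11 and 2 had 57.4 and 64.9 CPM, inside the KI range. In preMegE Jak2 had 36.1 to 52.3 CPM in VF and 26.5 to 31.7 in KI. In MkP it had 64 to 81.3 CPM in VF, 45.9 to 55.9 in E12 and 36.5 to 66 in KI. Read counts do not show which allele was transcribed. In 4 libraries the TMM factor was under 0.8, which means that few genes took a large share of the counts. These were replicate 4 of LTHSC E12, replicate 1 of preMegE KI and replicates 5 and 6 of MkP KI. LTHSC E12 replicate 4 stood apart in its markers: the 9 neutrophil and monocyte genes summed to 27490 CPM, against 708 to 2144 in the other 8 LTHSC libraries, and the 8 stem cell markers summed to 289.9 CPM, against 750 to 1016. Stem cell markers summed to 60.2 to 163 CPM in preMegE and MkP. Megakaryocyte and platelet markers reached 3250 to 16720 CPM in MkP, against 627 to 1914 in LTHSC and 917 to 3516 in preMegE. The 3516 CPM of preMegE KI replicate 1 was thus above the 3250 CPM of MkP KI replicate 4. That preMegE library also had 3694 CPM of late erythroid and 1830 CPM of lymphoid markers, against 642 to 902 and 178 to 722 CPM in the other preMegE libraries. Early erythroid markers reached 1894 to 4764 CPM in preMegE, against 239 to 841 in LTHSC and 513 to 1257 in MkP. Of the megakaryocyte markers, Gp6 was at 0 in every LTHSC and preMegE library. It was barely detected in MkP too, averaging 0.149 CPM in VF, 0.316 in E12 and 0.0999 in KI. Results that rest on the 4 libraries are given with and without them.

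Socs2 and Cish led the family in VF and KI stem cells, whereas in E12 Cish and Socs5 had the highest means. Per length, Socs2 averaged 42.4 ± 29.6 RPKM and Cish 41.3 ± 19.3 RPKM over the 9 LTHSC libraries (SD), or 28.2% and 27.5% of the summed RPKM of the 8 genes. By genotype, Socs2 averaged 77.15 RPKM in VF, 10.2 in E12 and 39.8 in KI, and Cish averaged 51.8 in VF, 18.5 in E12 and 53.7 in KI. In E12 the mean of Socs2 was thus below those of Cish and Socs5, which averaged 16.8 RPKM there, but the libraries disagreed. Socs2, Cish and Socs5 had 11.32, 28.78 and 8.537 RPKM in E12 replicate 11. They had 14.94, 22.97 and 24.01 RPKM in replicate 2, and 4.293, 3.589 and 17.77 RPKM in replicate 4. Socs2 was behind both only in replicate 2. Without E12 replicate 4 the means of Socs2, Cish and Socs5 in E12 were 13.1, 25.9 and 16.3 RPKM. Over all 9 libraries Socs5, a member tied to epidermal growth factor receptor turnover, averaged 21.9 RPKM. Socs1 averaged 14.7, Socs4 10.8, Socs6 8.53, Socs3 7.44 and Socs7 3.02 RPKM in the same libraries. Socs5 was above Socs1, and Socs3 above Socs7, in 9 of 9 LTHSC libraries, whereas Socs2 exceeded Cish in only 4 of 9.

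In preMegE the order was flatter. Socs4, a relative of Socs5 with a long N-terminal region, averaged 12.1 ± 6.91 RPKM and was followed by Socs2 at 8.29, Cish at 8.15, Socs5 at 7.18, Socs1 at 6.76 and Socs6 at 6.55 RPKM (6 libraries). These neighbours did not separate: each of them was above the next in 3 or 4 of 6 libraries. Socs7 at 3.97 RPKM and Socs3 at 1.95 RPKM closed the order, with Socs7 the higher in 6 of 6. In MkP, Socs2 averaged 12.7 ± 7.38, Socs4 11.5, Socs5 11.4, Socs1 8.60, Cish 8.05, Socs6 6.32, Socs7 3.42 and Socs3 1.44 RPKM (9 libraries). The place of Socs2 changed with the libraries and the genotype. Without the libraries of low TMM factor Socs4 averaged 13.97, Socs5 12.45, Socs2 11.78, Socs6 7.49 and Cish 7.21 RPKM (7 libraries). By genotype, with all libraries, Socs2 and Socs4 averaged 18.9 and 13.7 RPKM in VF, 3.95 and 14.7 in E12, and 15.2 and 5.89 in KI. Socs7 was above Socs3 in 9 of 9 MkP libraries, while Socs4 exceeded Socs5 in 4 of 9.

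**Figure D1:**
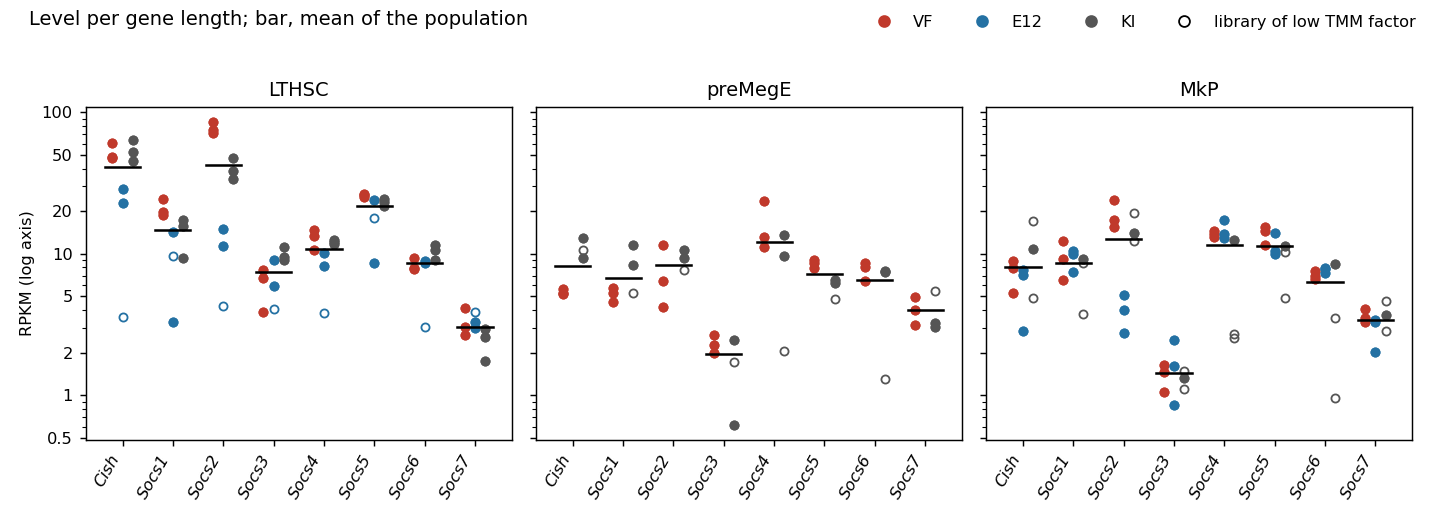
Level of each gene in RPKM on a log axis, by population; each point is a library, colours are genotypes, hollow points are the 4 libraries of low TMM factor, and black bars are population means. Socs2 and Cish stand highest in LTHSC, at means of 42.4 and 41.3 RPKM, and Socs3 is lowest in preMegE and MkP.

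Most members were lower in both progenitors than in stem cells. In preMegE against LTHSC, averaged over VF and KI, Cish, Socs1, Socs2, Socs3 and Socs5 fell (edgeR, adjusted p under 0.05), 5 of 8 members, where 19.4% of the 14965 genes tested were called lower. The median log2 fold change of the 8 members was -1.58, against -0.02 over all genes. In bulk RNA, fewer cells of a type and less RNA per cell cannot be told apart.

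Cish, whose protein occupies receptor docking sites for STAT5, ran from 5.16 through a median of 7.47 to 12.97 RPKM in preMegE, against 45.2, 50.2 and 63.4 RPKM in LTHSC of the same genotypes. All 6 preMegE libraries were below all 6 LTHSC libraries, a log2 fold change of -2.78 (SE 0.377, adjusted p = 1.34e-05, 6.89-fold lower). Socs2, a brake on growth hormone and other JAK2-coupled receptors, ran from 4.23 through 8.47 to 11.6 RPKM in preMegE, against 33.9, 59.3 and 85.1 RPKM in LTHSC. Again no library overlapped, and the log2 fold change was -2.75 (SE 0.285, adjusted p = 7.69e-07).

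Socs3, the inhibitor of the receptor chain Il6st and of the granulocyte receptor, ran from 0.618 through 2.13 to 2.65 RPKM in preMegE, against 3.85, 8.39 and 11.1 RPKM in LTHSC, and fell by 2.02 on the log2 scale (edgeR adjusted p = 1.13e-04). Socs5 ran from 4.82 through 7.23 to 9.05 RPKM in preMegE, against 21.9, 24.8 and 26.3 RPKM in LTHSC. Both pairs of groups were apart in every library, and Socs5 fell by 1.79 (edgeR adjusted p = 6.83e-06). Socs1, the chief inhibitor of interferon signalling, ran from 4.54 through 5.52 to 11.4 RPKM in preMegE, against 9.30, 18 and 24.5 RPKM in LTHSC, so that the ranges overlapped; its log2 fold change was -1.38 (edgeR adjusted p = 0.0019). Socs4 at -0.11, Socs6 at -0.52 and Socs7 at 0.50 did not pass. Socs6, known for binding the stem cell factor receptor Kit, passed without the 4 libraries of low TMM factor (-0.36, edgeR adjusted p = 0.0349), when 6 of 8 members were called lower beside 26.3% of genes.

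Cish, Socs1, Socs2, Socs3 and Socs5 were also lower in MkP than in LTHSC, averaged over VF, E12 and KI, 5 of 8 members beside 17.7% of genes called lower. Both comparisons use the LTHSC libraries of VF and KI, so they are not independent. Cish ran from 2.84 through a median of 7.65 to 17.1 RPKM in MkP, against 3.59, 47.3 and 63.4 RPKM in LTHSC, with a log2 fold change of -2.25 (SE 0.302, edgeR adjusted p = 7.98e-06). Socs3 ran from 0.848 through 1.46 to 2.44 RPKM in MkP, against 3.85, 7.70 and 11.1 RPKM in LTHSC. Its log2 fold change was -2.34 (SE 0.276, edgeR adjusted p = 1.58e-06), within the error of that of Cish, and its libraries did not overlap, whereas the low LTHSC end of Cish came from an E12 library.

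Socs2 ran from 2.76 through 13.9 to 24.01 RPKM in MkP, against 4.29, 38.2 and 85.1 RPKM in LTHSC, and its log2 fold change was -1.60 (SE 0.224, edgeR adjusted p = 1.41e-05). By genotype, Socs2 averaged 18.9 RPKM in VF, 3.95 in E12 and 15.2 in KI in MkP, against 77.15, 10.2 and 39.8 RPKM in LTHSC. The population difference was not tested within single genotypes. Socs5 changed by -0.94 (edgeR adjusted p = 4.64e-04) and Socs1 by -0.70 (edgeR adjusted p = 0.0394). The Socs1 call was lost, with adjusted p-values of 0.0507 to 0.115, on leaving out any one of 12 libraries: LTHSC E12 replicate 2, LTHSC KI replicates 2 and 3, each LTHSC VF, each MkP E12, MkP KI replicate 5, and MkP VF replicates 1 and 2. Without the 4 libraries of low TMM factor Socs1 was at -0.62 (edgeR adjusted p = 0.0794), leaving 4 members beside 20.6% of genes. With a replicate block, which can use only E12 and VF, 4 members passed and 1891 genes were called in place of 5198.

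Between the progenitors only Socs2 passed with all libraries. Over VF and KI it ran from 12.2 through 16.3 to 24.01 RPKM in MkP, against 4.23, 8.47 and 11.6 RPKM in preMegE, and all 6 MkP libraries were above all 6 preMegE libraries. The log2 fold change was 1.04 (SE 0.271, edgeR adjusted p = 0.0199, 2.06-fold higher), 1 of 8 members where 3.27% of genes were called higher. The adjusted p was 0.0525 without MkP KI replicate 6, 0.0645 without MkP VF replicate 1, and 0.0637 and 0.0577 without preMegE VF replicates 2 and 3. Without the libraries of low TMM factor both Socs2 (0.93, edgeR adjusted p = 0.0172) and Socs5 (0.78, edgeR adjusted p = 0.0197) were called higher, beside 8.36% of genes; with all libraries Socs5 was at 0.65 with an adjusted p of 0.0808.

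**Figure D2:**
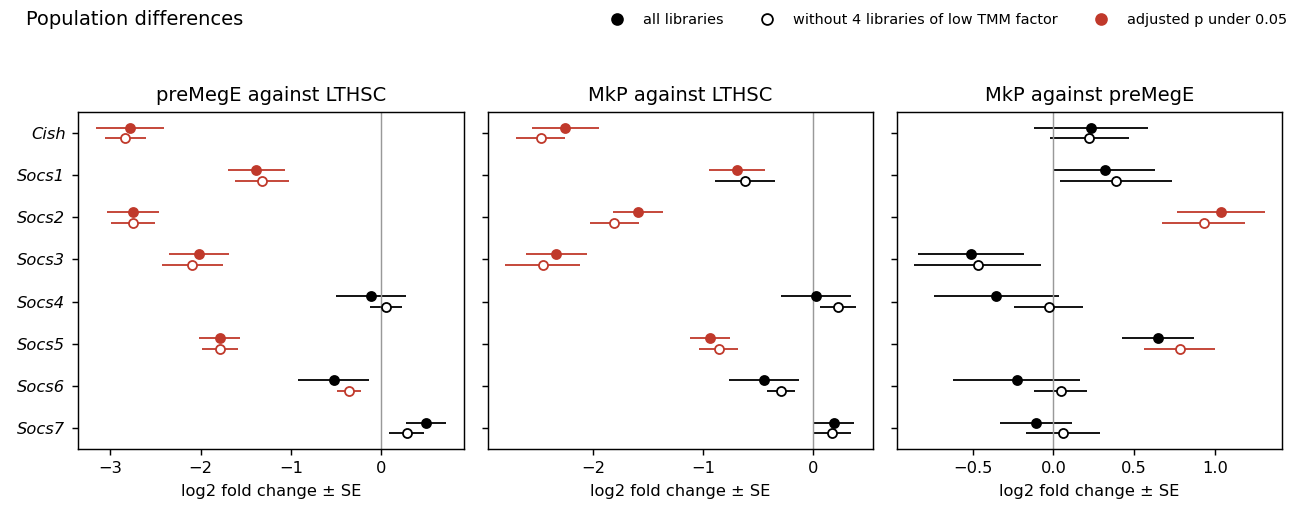
Log2 fold change ± SE of each gene between populations from edgeR, with all 24 libraries (filled) and without the 4 libraries of low TMM factor (hollow); red marks an adjusted p under 0.05. Cish, Socs2, Socs3 and Socs5 lie left of 0 in both comparisons with LTHSC, and Socs2 lies right of 0 in MkP against preMegE.

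Among genotypes, Socs2 was the only member called with all libraries, and it was lowest in E12. In LTHSC it had 262, 222 and 235 CPM in VF, 34.3, 46.7 and 14.2 CPM in E12 (replicates 11, 2 and 4), and 119, 152 and 109 CPM in KI. The 3 genotypes formed separate bands in the order VF, KI, E12, with no overlap between any pair. VF exceeded E12 by 2.92 on the log2 scale (SE 0.388, edgeR adjusted p = 0.0431, 7.55-fold). In that comparison 0.0353% of the 14152 genes tested, or 5 genes, were called. Without LTHSC E12 replicate 4 the difference was 2.56 (SE 0.205, edgeR adjusted p = 0.00183, 5.90-fold), beside 0.0899% of genes.

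The call was sensitive to which libraries were in the fit. Leaving out E12 replicate 11, or any one of the VF or KI libraries, gave adjusted p-values of 0.117 to 0.246, although the log2 fold change stayed between 2.85 and 2.98 in those 7 fits. E12 against KI was -2.00 (SE 0.375, edgeR adjusted p = 0.115) and did not pass, like the other 7 members, in a comparison that called 0.0424% of genes. By unadjusted p, 3 members were under 0.05 with edgeR, DESeq2 called 1 member, Socs2, and limma voom called 0. Without E12 replicate 4 Socs2 was at -1.65 (SE 0.197, edgeR adjusted p = 0.0252), beside 0.125% of genes, and without E12 replicate 2 at -2.39 (adjusted p = 0.0283). VF against KI was 0.92 (SE 0.364, edgeR adjusted p = 0.53), with 0 members and 0.0919% of genes called; 1 member was under an unadjusted 0.05, and DESeq2 and limma voom called 0. Without E12 replicate 4, which is no part of that contrast but of its spread, Socs2 was at 0.92 again (SE 0.166, edgeR adjusted p = 0.031), beside 2.03% of genes. The 3 comparisons share libraries in pairs and are not independent.

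LTHSC E12 also differed in other markers. Late erythroid genes summed to 595 to 1488 CPM in E12, against 97.8 to 146 CPM in VF and 36.9 to 60.5 CPM in KI, with all 8 genes detected in every E12 library. The neutrophil and monocyte sum was 1151 and 1335 CPM in E12 replicates 11 and 2, inside the KI range of 985 to 2144 CPM and above the VF range of 708 to 813 CPM. Early erythroid genes summed to 347.9, 361.9 and 840.9 CPM in E12 replicates 11, 2 and 4. Their range was 258.3 to 314.3 CPM in VF and 239.1 to 296.5 CPM in KI. Megakaryocyte and platelet genes summed to 1914, 1584 and 626.8 CPM in the same E12 libraries. They ran from 1463 to 1830 CPM in VF and from 1223 to 1401 CPM in KI. Lymphoid genes summed to 62.0 to 173 CPM in E12, 43.7 to 49.7 CPM in VF and 63.4 to 72.1 CPM in KI. Mast cell and basophil genes summed to 15.5 to 654 CPM in E12, 5.2 to 12.4 CPM in VF and 4.88 to 33.9 CPM in KI. Both upper ends in E12 came from replicate 4. Replicates 11 and 2 were inside or close to the KI ranges, at 72.0 and 62.0 CPM for lymphoid genes and 31.2 and 15.5 CPM for mast cell and basophil genes. The part of other lineages in the Socs2 difference was not tested.

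In MkP, Socs2 was again lowest in E12. It had 58.3, 37.2 and 42.9 CPM in VF, 12.3, 9.61 and 6.69 CPM in E12, and 34.3, 32.5 and 52.0 CPM in KI (replicates 4, 5 and 6). All 3 E12 libraries were below every VF and KI library, while VF and KI overlapped. E12 against KI was -2.06 (SE 0.33, edgeR adjusted p = 0.0616), and VF against E12 was 2.28 (SE 0.332, edgeR adjusted p = 0.558), the smallest raw p of all 13435 genes in that comparison. VF against KI was 0.22 (SE 0.316).

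No gene passed in MkP with all libraries: the share called was 0% in VF against KI, 0% in E12 against KI and 0% in VF against E12, although edgeR gave 3611, 3899 and 167 genes with an unadjusted p under 0.05. Of the 8 members, 0, 2 and 1 were under that unadjusted threshold in the same order. DESeq2 called 2532, 2846 and 9 genes there, with 0, 1 and 1 members, and limma voom called 0 genes in each. Without MkP KI replicates 5 and 6, Socs2 was called in E12 against KI (-1.86, SE 0.315, edgeR adjusted p = 0.0229), beside 0.684% of genes, and in VF against E12 (2.28, SE 0.252, edgeR adjusted p = 0.00584), beside 0.0760% of genes. VF against KI then called 0 members and 0.414% of genes, with Socs2 at 0.42. In these fits KI is 1 library, assumed to vary like the other groups.

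Cell type markers moved with part of this. In MkP the neutrophil and monocyte sum was 3996 to 8548 CPM in VF, against 1457 to 3417 CPM in E12, and the late erythroid sum was 48.2 to 137 CPM in VF, against 161 to 847 CPM in E12. The megakaryocyte and platelet sums overlapped, at 5239 to 7560 CPM in VF and 5320 to 6227 CPM in E12. In E12 against KI, late erythroid genes summed to 161 to 847 CPM in E12 and 22.7 to 90.7 CPM in KI, and mast cell and basophil genes to 89.2 to 156 CPM in E12 and 285 to 974 CPM in KI. Stromal and endothelial genes summed to 25.9 to 32.4 CPM in E12 and 4.94 to 16.6 CPM in KI, and stem cell markers to 114 to 124 CPM in E12 and 126 to 159 CPM in KI, also without overlap. The part of the other lineages in the Socs2 difference was not tested.

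**Figure D3:**
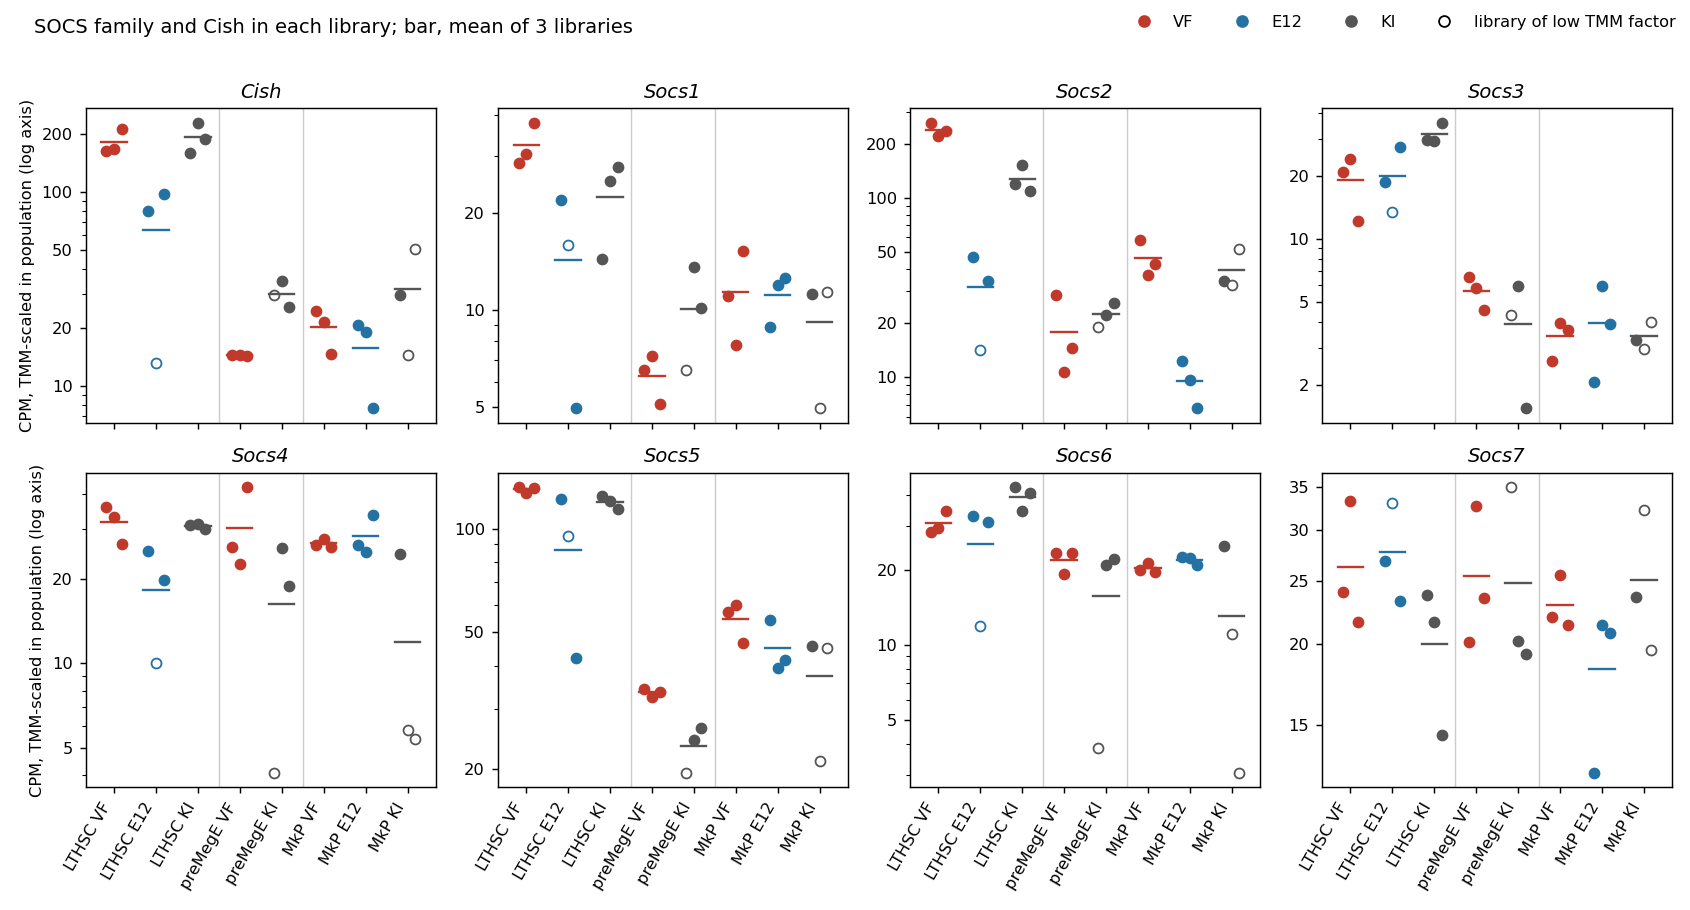
CPM of each gene on a log axis in every library, scaled within its population; points are libraries, bars are group means of 3, colours are genotypes and hollow points are the 4 libraries of low TMM factor. Socs2 in E12 lies below VF and KI in LTHSC and in MkP, and Socs4 and Socs6 are low in the hollow KI libraries.

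Cish was also lowest in E12 stem cells, without passing the test. In LTHSC it had 163, 167 and 210 CPM in VF, 97.4, 80.1 and 13.2 CPM in E12, and 158, 228 and 188 CPM in KI. Every E12 library was below every VF and KI library, while VF and KI overlapped. E12 against KI was -1.59 (SE 0.546, edgeR adjusted p = 0.286) and VF against E12 was 1.5 (SE 0.544, edgeR adjusted p = 0.448). Without E12 replicate 4, which was the lowest, these were -1.10 (edgeR adjusted p = 0.0692) and 1.01 (edgeR adjusted p = 0.132), and neither passed. Counting all members, 5 of 8 did not overlap in E12 against KI, all lower in E12, where 16.0% of genes did not overlap. The same count was 5 of 8 in VF against E12, all higher in VF, beside 21.4% of genes, and 5 of 8 in VF against KI, beside 30.9% of genes. Exons of Cish overlap those of Gm17041 on the opposite strand over 479 bases and of Gm17040 over 261 bases; the strand setting of the counting is not stated, so their reads cannot be told apart.

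In preMegE, Cish was lower in VF. It had 14.5, 14.6 and 14.3 CPM in VF, against 29.4, 34.7 and 25.6 CPM in KI, and the groups were well apart. The log2 fold change of -1.05 (SE 0.325, 2.07-fold lower) had an unadjusted p of 0.0094 but an edgeR adjusted p of 0.642. In VF against KI preMegE 0 members were called, with 1 under an unadjusted 0.05 and 0 called by DESeq2 or limma voom, beside 0.0151% of the 13231 genes tested. Cish and Socs5 did not overlap between the genotypes, 2 of 8 members, beside 12.3% of genes. With a replicate block 10 genes were called in place of 2, and still 0 members. The neutrophil and monocyte sum differed as well, at 8875 to 19070 CPM in VF against 2530 to 3969 CPM in KI, with all 9 markers detected. Mpo, the myeloperoxidase of early granulocytes, made up most of it, averaging 8240 CPM in VF and 1180 CPM in KI, while Lyz2 averaged 210 CPM in VF and 244 CPM in KI. Lymphoid genes summed to 178 to 222 CPM in VF, against 380.3 to 1830 CPM in KI, and stromal and endothelial genes to 5.62 to 7.55 CPM in VF, against 8.22 to 20.1 CPM in KI. The part of these cells in the Cish difference was not tested. Socs2 had 28.6, 10.7 and 14.5 CPM in preMegE VF, against 18.9, 22.3 and 26.0 CPM in KI, so that VF lay both above and below KI. Socs5 had 34.3, 32.6 and 33.5 CPM in VF, against 19.5, 24.3 and 26.3 CPM in KI, and its log2 fold change of 0.52 did not pass (edgeR adjusted p = 0.642).

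In MkP, Cish had 24.3, 21.4 and 14.6 CPM in VF, 20.6, 19.0 and 7.68 CPM in E12, and 29.5, 14.5 and 51.0 CPM in KI. The KI libraries spanned the VF range, and E12 replicate 5, at 7.68 CPM, was below every other library. E12 against KI was -1.01 (SE 0.496, edgeR adjusted p = 0.2) and VF against KI was -0.66 (SE 0.493), neither past the threshold.

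**Figure D4:**
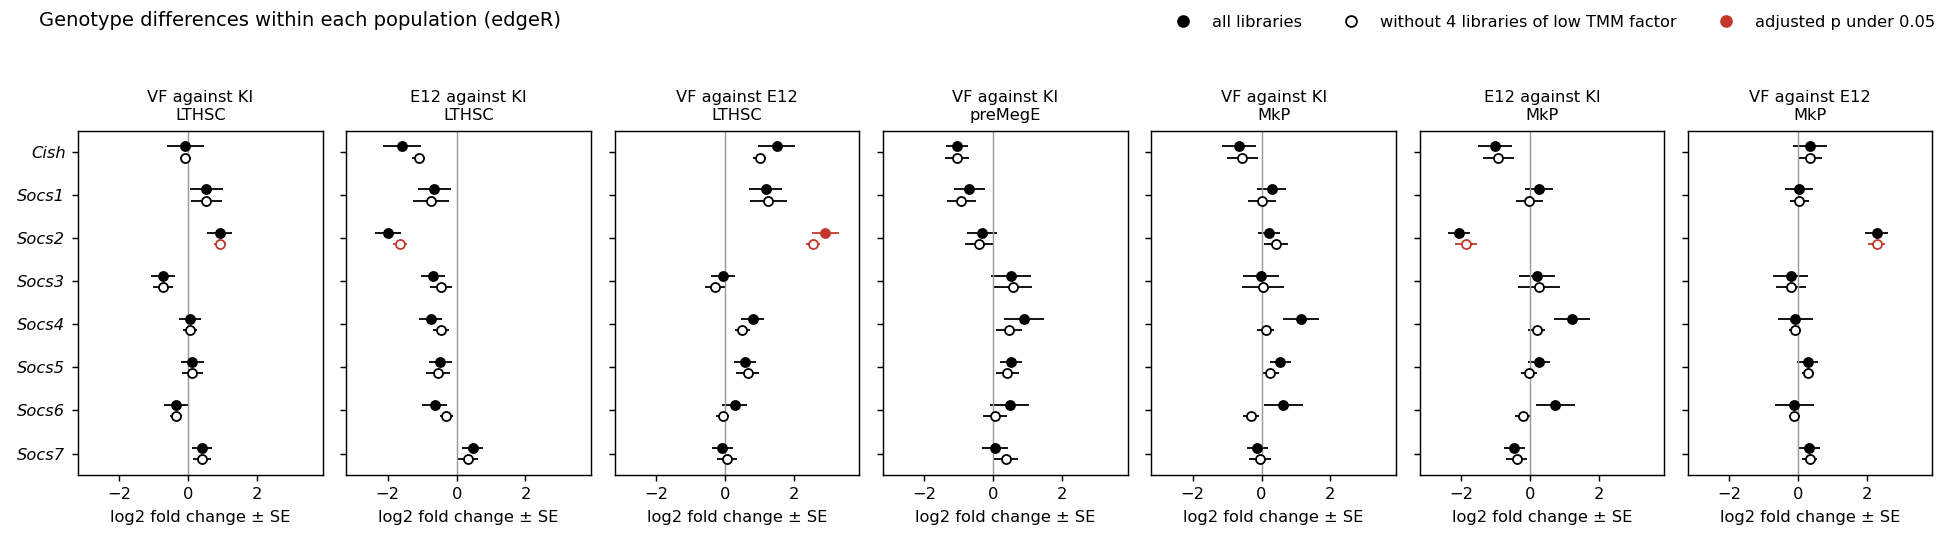
Log2 fold change ± SE of each gene between genotypes within a population from edgeR, with all libraries (filled) and without those of low TMM factor (hollow); red marks an adjusted p under 0.05. Socs2 in VF against E12 LTHSC is the only filled red point, at 2.92, and Socs4 and Socs6 move towards 0 or across it in MkP when 2 KI libraries are left out.

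The direct kinase inhibitors Socs1 and Socs3 passed no test between genotypes with all libraries. Socs1 in LTHSC had 28.6, 30.3 and 38.0 CPM in VF, 4.98, 21.9 and 15.9 CPM in E12, and 14.4, 25.1 and 27.6 CPM in KI. VF was above both other genotypes in every library, and the E12 library of 4.98 CPM was far below the rest. The log2 fold change of VF against E12 was 1.18 (edgeR adjusted p = 0.448) and that of VF against KI was 0.53 (edgeR adjusted p = 0.897). Socs3 in LTHSC had 21.0, 24.2 and 12.1 CPM in VF, 27.6, 18.7 and 13.4 CPM in E12, and 29.8, 29.5 and 36.0 CPM in KI. VF and E12 were below KI in every library, with log2 fold changes against KI of -0.73 in VF and -0.67 in E12, and neither passed. In preMegE and MkP Socs3 stayed between 1.54 and 6.58 CPM and Socs1 between 4.95 and 15.3 CPM, and neither passed in any comparison of genotypes.

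Socs4 and Socs6 were low in the libraries of low TMM factor. In MkP, Socs4 had 26.5, 27.9 and 25.9 CPM in VF, 26.4, 25.0 and 33.6 CPM in E12, and 24.5, 5.78 and 5.36 CPM in KI. The low values were the 2 KI libraries of low TMM factor, and KI replicate 4 was close to the other genotypes. Socs4 was thus at 1.14 in VF against KI and 1.23 in E12 against KI on the log2 scale with all libraries, and at 0.12 and 0.20 without those 2. Socs6 had 19.9, 21.4 and 19.6 CPM in VF, 22.6, 22.4 and 20.9 CPM in E12, and 24.9, 11.1 and 3.04 CPM in KI. Its log2 fold changes of 0.63 and 0.74 against KI became -0.30 and -0.19 without the 2 libraries. Leaving out KI replicate 4 instead, which keeps only the other 2, called both genes higher against KI, Socs4 at 2.28 in VF and 2.36 in E12 and Socs6 at 1.59 and 1.70. In those fits 48.9% of genes were called in VF against KI and 49.8% in E12 against KI, so that the 2 genes were called along with much of the table.

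A like drop was seen in preMegE KI replicate 1, where Socs4 had 4.06 CPM, against 25.8 and 18.9 in the other KI libraries, and Socs6 had 3.83 CPM, against 21.0 and 22.1. LTHSC E12 replicate 4 was lowest of its population for both as well, at 10.03 and 11.96 CPM. In MkP 2 of 8 members, Socs4 and Socs5, did not overlap in VF against KI, beside 20.3% of genes. Socs2 and Socs4 did not overlap in E12 against KI, 2 of 8 members beside 22.6% of genes, and 1 of 8, Socs2, did not overlap in VF against E12, beside 14.6% of genes.

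With all libraries, Socs5 and Socs7 had the lowest coefficients of variation of the 8 members in each population. Without those of low TMM factor Socs6 had the lowest, at 0.15 in LTHSC, 0.0791 in preMegE and 0.0843 in MkP, followed by Socs4 in LTHSC (0.176) and MkP (0.114) and Socs5 in preMegE (0.151). Socs5 in LTHSC ran from 127 to 132 CPM in VF, 42.2 to 122 CPM in E12 and 115 to 125 CPM in KI, and in MkP from 46.6 to 60.2 CPM in VF, 39.4 to 54.5 CPM in E12 and 21.1 to 45.7 CPM in KI. VF lay just above KI in both, and the log2 fold changes of 0.12 and 0.55 did not pass. Socs7, an adaptor linked to insulin signalling, ran from 12.7 to 34.9 CPM over all 24 libraries. With all libraries its coefficient of variation was 0.237 in LTHSC, 0.274 in preMegE and 0.234 in MkP, against 0.691, 0.339 and 0.586 for Socs2 in the same order.

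Whether a genotype difference itself differed between populations was tested over all 24 libraries, and 0 members passed in any of the 4 tests. The change of the VF-KI difference of Socs2 was -0.64 in MkP minus LTHSC (SE 0.535) and -1.26 in preMegE minus LTHSC (SE 0.538, unadjusted p = 0.0284, edgeR adjusted p = 0.906). The E12-KI difference of Socs2 changed by 0.02 in MkP minus LTHSC (SE 0.546) and the VF-E12 difference by -0.66 (SE 0.537). With edgeR, 0, 1, 1 and 0 members were under an unadjusted p of 0.05 in the VF-KI test of MkP, the VF-KI test of preMegE, the E12-KI test and the VF-E12 test. DESeq2 and limma voom called 0 members in each. The share of genes called was 0.0134%, 0%, 0.0334% and 0% in the same order, with 663 and 555 genes under an unadjusted 0.05 in the tests that called none and 11 and 43 called there by DESeq2. In the E12-KI test Socs4 was at 2.02 (edgeR adjusted p = 0.118), and at 0.62 without the libraries of low TMM factor.

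Within a library, the ratio of Socs2 to Cish does not depend on the scaling. In LTHSC the RPKM ratio was 1.80, 1.48 and 1.25 in VF, 0.393, 0.650 and 1.20 in E12, and 0.844, 0.747 and 0.648 in KI. All VF libraries were above all others, with E12 replicate 4 the nearest. In MkP it was 2.68, 1.94 and 3.28 in VF, 0.667, 0.565 and 0.973 in E12, and 1.3, 2.5 and 1.14 in KI, so that E12 was below both other genotypes and VF overlapped KI. In preMegE it was 2.21, 0.820 and 1.14 in VF, against 0.720, 0.718 and 1.14 in KI.

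**Figure D5:**
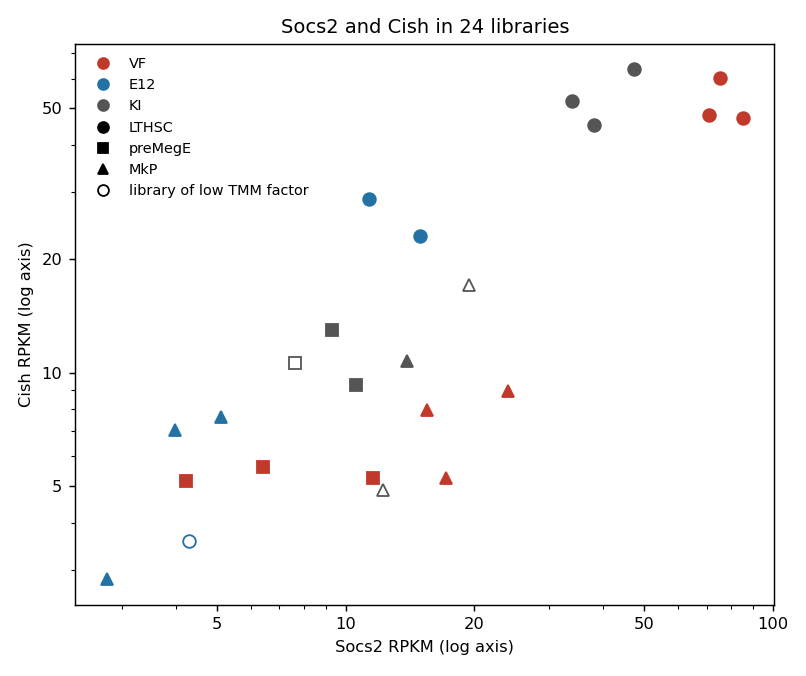
Cish against Socs2 in RPKM, both on log axes, in 24 libraries; colour is genotype, shape is population and hollow points are the 4 libraries of low TMM factor. VF LTHSC lie to the right of KI LTHSC at like Cish levels, and E12 libraries lie left of VF and KI of their population.

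Over the 24 libraries, which share population and genotype groups, Pearson's r of log2 CPM was 0.845 for Cish and Socs2 and 0.866 for Socs4 and Socs6. These are descriptions. Both Socs4 and Socs6 were low in the 4 libraries of low TMM factor, and r was not computed without those libraries. Outside the family, the 3 genes most like Socs2 among 10410 compared were Slc17a8 (r = 0.926, rho = 0.923), Ncam2 (r = 0.89) and Ecm1 (r = 0.877). Those most like Cish were Ocln (r = 0.925, rho = 0.816), Col4a1 (r = 0.919) and Map4k2 (r = 0.915). Among the genes most like Socs3 were C1ra (r = 0.923) and C1rb (r = 0.922), and Socs1 was most like Ccdc91 (r = 0.824), Mpdz (r = 0.789) and Snx25 (r = 0.788).

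The rest of the pathway was read from lists of kinases and STATs, cytokine receptors, other negative regulators, SOCS box partners and target genes. In the genotype comparisons with all libraries, 1 of 19 STAT5 and STAT3 targets passed: Junb, an immediate-early transcription factor, was lower in LTHSC VF than in KI (-3.23, SE 0.34, edgeR adjusted p = 0.00814). In that comparison 0.0919% of all genes were called. Without the libraries of low TMM factor, Il2rg, the shared interleukin receptor chain (-0.93), Myc, the growth regulator (-0.76), and Mcl1, a survival factor (-1.19), were also lower in LTHSC VF than in KI, and Irf7, an interferon-induced factor, was higher (1.32), beside 2.03% of all genes called. Junb was then lower in preMegE VF than in KI as well (-1.61), beside 0.235% of genes.

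Between populations more of the pathway was called, as were more genes of all kinds. In preMegE against LTHSC, where 21.3% of all genes were called higher and 19.4% lower, 7 of 11 kinases and STATs fell and 0 rose, among them Stat4 (-2.16) and Jak2 (-0.82). Of 20 interferon targets 11 fell and 0 rose, including Ifit3 (-3.58) and Irf1 (-1.56). Of 9 partners of the SOCS box ligase 5 rose and 0 fell, among them Elob, an elongin (2.78), and Nedd8, the ubiquitin-like activator of cullins (2.24). Without the libraries of low TMM factor these were 1.36 and 1.14. Of 19 STAT5 and STAT3 targets 3 rose and 6 fell, of 21 cytokine receptors 5 rose and 7 fell, and of 16 other negative regulators 2 rose and 5 fell. The shares of these targets and regulators that rose were below that of all genes. The median log2 fold change was -0.90 for kinases and STATs, -0.91 for interferon targets and 0.97 for SOCS box partners, against -0.02 over all genes. Without the libraries of low TMM factor the median of SOCS box partners was 0.48, against -0.11 over all genes. In those fits 23.5% of genes were called higher and 26.3% lower, and the counts for STAT5 and STAT3 targets were 5 higher and 9 lower of 20, and those for other negative regulators 3 higher and 9 lower of 16. The examples were chosen after their values were seen.

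In MkP against LTHSC, where 17.0% of all genes were called higher and 17.7% lower, the counts were 1 higher and 6 lower of 11 kinases and STATs, 0 and 10 of 20 interferon targets, 5 and 0 of 9 SOCS box partners, 6 and 5 of 19 STAT5 and STAT3 targets, 2 and 10 of 21 receptors, and 2 and 3 of 16 other regulators. Jak2 did not pass there (0.04). Without the libraries of low TMM factor SOCS box partners were 2 higher of 9, and STAT5 and STAT3 targets 6 higher and 9 lower of 20, beside 18.6% of genes higher and 20.6% lower. In MkP against preMegE, where 3.27% of genes were called higher and 4.26% lower, kinases and STATs, interferon targets and SOCS box partners had 0 members called, 2 receptors rose and 7 fell, 3 STAT5 and STAT3 targets rose and 1 fell, and 1 other regulator rose. The erythropoietin receptor Epor was lower in MkP (-1.32), beside Socs2 at 1.04. Without the libraries of low TMM factor 3 kinases and STATs and 3 interferon targets were called higher in MkP, beside 8.36% of genes, and 7 of 22 receptors lower, beside 8.61%. In that fit STAT5 and STAT3 targets were 3 higher and 4 lower of 20. Other negative regulators were 2 higher and 2 lower of 16, and SOCS box partners 0 higher and 1 lower of 9.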

How the data were processed

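RNA of 24 sorted mouse bone marrow libraries was analysed from 1 table of raw counts per gene, made by the authors; the submitters' processing notes name STAR (2.7.0c), Subread (1.6.4) with featureCounts, and mm10, while the annotation, the strand setting and the handling of multiply mapped reads are not given in the sources used here. The 16 rows without a symbol, at most 0.013% of a library, were left out, and 0 value columns stayed unmapped. Another 6 columns are named MEP and were taken as preMegE by line and replicate number. Of 276 pairs of libraries 0 held identical values, and the smallest chi-square per degree of freedom was 19.8. Total counts were 10357877 to 29691635 per library. Over all genes together, replicate spread was larger than counting error. This need not hold at low counts, such as the 18 reads of Socs3 in MkP KI replicate 5. Smart-seq2 reads carry no molecular identifiers.

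The test was the 2-sided robust quasi-likelihood F test of edgeR (4.0.16, under R 4.3.3) after TMM scaling and filterByExpr with the groups, at a Benjamini-Hochberg threshold of 0.05 over all genes tested. Genotypes were compared within a population over all its libraries. Populations, averaged over the genotypes both share, and differences of differences were fitted over all 24 libraries. The SE is the log2 fold change divided by the square root of F. RPKM uses the deposited gene length. Likeness to a member was Pearson's r of log2(CPM + 1) among genes of at least 10 CPM in 1 group mean. Coordinates and promoters came from RefSeq GRCm38.p6, the assembly behind mm10, to which 24374 of 24454 IDs matched; promoter windows were found for 4 of 8 members.

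The members, gene lists and tests were chosen with earlier results of these data known. All members are described. Genes of the pathway lists are named where a genotype comparison or a difference of differences called them, up to 5 per list; those named in comparisons of populations, and single markers, were chosen after their values were seen. For Cish, Socs1, Socs2 and Socs3 the 3 genes of highest r are named, except for some genes that are not reported here. Alternatives were RLE scaling, library totals alone, no filter, DESeq2 1.42.0, limma voom 3.58.1, only the groups compared, a replicate block, leaving out libraries of TMM factor under 0.8, and each library in turn. The scripts were tested on simulated counts.

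Replicate numbers were taken to pair libraries where every same-numbered pair deviated together with r over 0.1. This held for VF and KI in preMegE (0.422, 0.154 and 0.383) and for VF in LTHSC and MkP (0.175, 0.134 and 0.131); the labels name no shared animal or day.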

Additional observations from a re-analysis of the deposited data

How the results depend on the processing

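The log2 fold changes of the 8 members were recomputed 2664 times over all comparisons and alternatives. Direction and side of the threshold stayed in 2534, 29 calls were gained, 29 were lost, 72 changed sign without passing in either fit, and 0 called values reversed. The number of members lower in preMegE than in LTHSC was 5 to 6, and in MkP than in LTHSC 4 to 6, under every alternative. For VF against KI in LTHSC, 1 member (Socs2) was called in place of 0 with only the groups compared, with the replicate block (0.93, edgeR adjusted p = 0.0151) and without libraries of low TMM factor. For E12 against KI in LTHSC it was 1 in place of 0 by DESeq2 and without those libraries. For VF against E12 in LTHSC it was 0 in place of 1 with no composition scaling and with only the groups compared. In MkP, E12 against KI gave 1 in place of 0 by DESeq2, with no filter and without libraries of low TMM factor, and VF against E12 gave 1 in place of 0 by DESeq2, with only the groups compared and without those libraries. MkP against preMegE gave 2 in place of 1 by DESeq2 and without those libraries, and 0 with no composition scaling. The cause was not tested.

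Leaving out each library in turn gave 0 to 1 members for each comparison of genotypes in LTHSC, 0 to 2, 0 to 3 and 0 to 1 in MkP (VF against KI, E12 against KI, VF against E12), and 0 to 2 in MkP against preMegE. The difference of VF-KI differences between MkP and LTHSC gave 0 to 1 and that of E12-KI differences 0 to 2. Both upper values, and those of the MkP genotypes, came without MkP KI replicate 4, which leaves as KI the 2 libraries of low TMM factor.

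The number of all genes called moved far more. Over the alternatives it was 1 to 933 (13 as reported) for VF against KI, 2 to 438 (6) for E12 against KI and 1 to 305 (5) for VF against E12 in LTHSC, and 0 to 68 (2) for VF against KI in preMegE. In MkP it was 0 to 6732, 0 to 6856 and 0 to 12 (0 each). Between populations it was 5175 to 7948 (6092), 1891 to 6406 (5198) and 324 to 2708 (1128) for preMegE and MkP against LTHSC and MkP against preMegE. The differences of differences gave 0 to 2614 (2), 0 to 33 (0), 0 to 4530 (5) and 0 to 43 (0). Replicate numbers did not pair VF with KI in LTHSC (r = -0.0236, -0.0182 and 0.0126). No paired analysis was possible for VF in MkP against KI or E12 or for E12 in LTHSC because too few numbers are shared. Other blocks changed no call except Socs1 in MkP against LTHSC.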
